A study of Mus musculus with 288 samples.

Results

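The Dppa genes Dppa2, Dppa3, Dppa4 and Dppa5a were chosen by name and are 4 of the 54232 genes in the deposited count table, of which 29287 have a read in at least 1 well. They were followed in single mouse embryonic stem cells (mESCs) whose labels all name the line E14 and the strain 129/Ola, and that were kept in 2i+LIF and then released into serum with LIF. 2i is a pair of inhibitors, of MEK and of GSK3, that holds mESCs in a naive state with little DNA methylation, and LIF is a cytokine that supports self-renewal. Cells were sorted into plates of 96 wells at 0 h (label D0), 24 h (D1) and 48 h (D2) after release, and their RNA and DNA were separated and sequenced by scNMT-seq. Only the RNA is described here. The labels name no genetic difference between the groups and show no more than 1 culture and 1 plate for each. Time after release, culture, plate and, for D1, the genotype of the cells (below) cannot be told apart. Because cells of 1 culture do not replicate a condition, labels are compared without a test. The SD given below is the spread between cells.

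Dppa stands for developmental pluripotency associated. The name covers proteins of several kinds that share expression in early embryos and germ cells. DPPA2 and DPPA4 are related nuclear proteins with a SAP domain that form a complex on CpG-rich promoters, and they are known to keep some of these promoters free of DNA methylation and to activate genes of the 2-cell embryo. DPPA3, also called STELLA or PGC7, is a maternal and germ cell factor that binds UHRF1, the partner of the maintenance methyltransferase DNMT1, and limits its action on chromatin. DPPA5A, also called ESG1, is a small protein with a KH domain, a fold that binds RNA. The de novo methyltransferases DNMT3A and DNMT3B, with their inactive cofactor DNMT3L, place new methylation after release.

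Of 288 wells, 233 passed the cell filter (more than 200000 reads, more than 2000 genes with a read and a mitochondrial share under 0.15), 90 labelled D0, 50 labelled D1 and 93 labelled D2. Reads on genes per cell ranged from 202157 to 43336922, and the median number of detected genes was 9002, 10676 and 4744 in D0, D1 and D2. At an equal depth of 200000 randomly drawn reads a cell, the medians were 7823.5, 8058 and 3952. The stem cell identity of the labels was checked with 10 markers, all read in every label, whose summed level had medians of 2973, 2575 and 4295 CPM in D0, D1 and D2. CPM is the number of reads on a gene divided by the reads of the cell on all genes, brought to a common total. The summed markers of primitive endoderm, mesoderm, fibroblasts and 2-cell-like cells had a median of 0 in every label. Those of trophectoderm had medians of 13.6, 1.02 and 0 CPM in D0, D1 and D2, and those of ectoderm 0, 13.1 and 0 CPM. The plate labelled D1 stands apart: Hprt, a purine salvage gene, had a read in 48 of its 50 cells but in 9 of 90 cells labelled D0 and 7 of 93 labelled D2. Of these few cells, 6 in D0 and 6 in D2 lay in plate column 12. A sum over 4 genes of the Y chromosome (Uty, Kdm5d, Eif2s3y and Ddx3y), chosen after their values were seen, differed in the same way, with a mean of 269 ± 187 CPM and a read in 48 of 50 cells for D1, against 22.9 ± 155 CPM and 3 of 90 cells for D0 and 5.21 ± 35.7 CPM and 5 of 93 cells for D2. The reference that the study cites for E14 concerns HPRT-deficient mouse embryos raised from cultured cells, and the Hprt reads of the plate labelled D1 go against such a line. The Hprt genotype of the cultures is not given in the sources used here. Every ratio with D1 below may therefore hold a difference between lines or genotypes as well as between times, and how much was not tested. Ratios of the 4 Dppa genes without the cells that differ from their label in Hprt are given after those in all cells, with the changes this brings to the listed genes.

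Dppa4 and Dppa2 lie next to each other on the + strand of chromosome 16, with Dppa4 at chr16:48283733-48294237 and Dppa2 at chr16:48303908-48319723, 9670 bases apart (GRCm38, GENCODE M21). Their annotated proteins have 296 and 301 residues, of which 97 of 268 aligned residues are identical (36.2%). Dppa3 lies at chr6:122626410-122630272 on the + strand and encodes 150 residues. Dppa5a lies at chr9:78367052-78368177 on the - strand and encodes 118 residues. All 4 are annotated as protein coding.

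Dppa5a and Dppa3 have near-identical copies among which reads could be divided. The annotated pseudogenes Dppa5b and Dppa5c lie 120916 and 94468 bases from Dppa5a on the same chromosome, and each differs from it at 9 of 297 aligned bases. The stretch of 90 bases below is shown because it holds 5 of those differences, marked by capitals. A read over these bases, or over the 4 differences outside the stretch, can be placed. It covers coding bases 164 to 253 of Dppa5a, at chr9:78367766-78367855 on the - strand, and the copies at chr9:78245794-78245883 and chr9:78272242-78272331 on the + strand (GRCm38).
Dppa5a: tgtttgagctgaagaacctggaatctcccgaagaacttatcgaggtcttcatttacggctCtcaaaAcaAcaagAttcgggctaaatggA
Dppa5b: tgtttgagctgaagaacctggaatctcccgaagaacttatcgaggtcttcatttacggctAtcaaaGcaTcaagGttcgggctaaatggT
Dppa5c: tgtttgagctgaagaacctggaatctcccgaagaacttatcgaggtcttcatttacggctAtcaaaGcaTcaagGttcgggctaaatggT
Both copies carry the same bases in this window. Reads went almost wholly to Dppa5a. Dppa5c took 507 of 516429 reads on the 3 loci in D0 (0.0982%, 95% Wilson interval 0.0900% to 0.107%), 7582 of 2315520 in D1 (0.327%, 0.320% to 0.335%) and 1487 of 1587526 in D2 (0.0937%, 0.0890% to 0.0985%). Dppa5b took 5, 76 and 51 reads. Dppa3-ps, a processed copy of Dppa3 on the X chromosome that differs at 8 of 451 aligned bases, took 35, 53 and 7 reads beside 19020, 7764 and 12513 on Dppa3 in D0, D1 and D2. These intervals cover counting error only, since the counts carry no molecular identifiers. How the counting treated a read that matches several loci is not given in the sources used here, so Dppa5c is not read further. Dppa1, another gene of that name, had 49 reads in 2 cells labelled D0 and none in D1 or D2.

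The order of the 4 genes within a label was set by Dppa5a, which stood far above the others. Levels of different genes were compared per kilobase of annotated exon. In D0 the mean was 4329 ± 2886 CPM per kb (SD, n = 90 cells) for Dppa5a, 103 ± 104 for Dppa3, 37.3 ± 31.6 for Dppa4 and 26.8 ± 33.8 for Dppa2, on the same scale. Pou5f1, the gene of the core pluripotency factor OCT4, was at 223 ± 81.8 CPM per kb in the same cells. The last 3 Dppa genes overlapped widely between cells, so their order is one of means. In D1 the means were 7242 ± 4214 CPM per kb for Dppa5a, 134 ± 68 for Dppa4, 130.3 ± 74.9 for Dppa2 and 40.1 ± 154 for Dppa3. In D2 they were 11051 ± 10321 CPM per kb for Dppa5a, 115 ± 107 for Dppa2, 112 ± 107 for Dppa4 and 77.9 ± 209 for Dppa3. Dppa3 thus went from second to last among the means, and Dppa2 and Dppa4 differed by less than the spread between cells in each label.

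Dppa2 was low in 2i and several-fold higher after release. In D0 its level ranged from 0 to 477 CPM with a median of 45.8 CPM, in D1 from 10.1 to 736 CPM with a median of 296 CPM, and in D2 from 0 to 1192 CPM with a median of 209 CPM. The ranges overlapped, but 20 of 90 cells labelled D0 were above 100 CPM against 45 of 50 labelled D1 and 65 of 93 labelled D2. The mean was 65.5 ± 82.7 CPM (SD, n = 90 cells) in D0, 319 ± 183 CPM (n = 50) in D1 and 280.5 ± 262 CPM (n = 93) in D2. Over D0 these are log2 ratios of 2.28 (4.87-fold) for D1 and 2.10 (4.28-fold) for D2. The cell with the lowest Dppa2 in D1, at 10.1 CPM, was 1 of the 2 cells of that label without an Hprt read.

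Dppa4, the partner of Dppa2, followed the same course with a smaller ratio. It ranged from 0 to 263 CPM in D0 (median 49.2 CPM), from 5.71 to 474 CPM in D1 (median 231 CPM) and from 0 to 625 CPM in D2 (median 153 CPM). Cells above 100 CPM numbered 21 of 90, 41 of 50 and 49 of 93. The means were 62.1 ± 52.6, 223 ± 113 and 186 ± 177 CPM in D0, D1 and D2, which give log2 ratios over D0 of 1.85 (3.59-fold) and 1.58 (2.99-fold). Cells labelled D2 were more uneven than those of the other labels, with a lower quartile of 8.73 CPM and an upper quartile of 308 CPM, against 146 and 299 CPM in D1. As the difference of mean log2(CPM + 1), which gives cells without a read more weight, Dppa4 in D2 over D0 was at 0.70.

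Dppa5a was read in all 233 cells, and its level was higher at each later label. It ranged from 181 to 15528 CPM in D0 (median 2382 CPM), from 909 to 12359 CPM in D1 (median 3522 CPM) and from 1703 to 48060.3 CPM in D2 (median 5063 CPM). The means were 2679.8 ± 1786, 4483 ± 2608 and 6841 ± 6389 CPM in D0, D1 and D2. The log2 ratio over D0 was 0.74 (1.67-fold) in D1 and 1.35 (2.55-fold) in D2, and that of D2 over D1 was 0.61 (1.53-fold). The ranges overlapped in every pair of labels. The highest cell of D0 had 2342 detected genes against a median of 9002 in its label, and across the cells of each label the level of Dppa5a had a Spearman rho with the number of detected genes of -0.34 in D0, -0.47 in D1 and -0.23 in D2.

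Dppa3 went the other way, with fewer cells that held it and a lower median level in those that did. In D0 its level ranged from 0 to 423 CPM with a median of 61.6 CPM, and 30 of 90 cells were above 100 CPM. In D1 the median was 0 and 4 of 50 cells were above 100 CPM, and in D2 the median was 0 and 14 of 93 cells were above 100 CPM. The highest cells after release were above any cell in 2i, with 948 CPM for D1 and 1115 CPM for D2. The 5 highest cells held 82.9% of the summed CPM of Dppa3 in D1 and 59.2% in D2, against 20.4% in D0. The means were 91.5 ± 92.9, 35.8 ± 137 and 69.5 ± 186 CPM in D0, D1 and D2, with log2 ratios against D0 of -1.35 (0.391-fold) and -0.40 (0.760-fold). A single cell decided the mean of D1. It lay in row B, column 7 of its plate and had 350065 reads and 2172 detected genes, and without it the mean was 17.2 ± 39.7 CPM (n = 49) and the log2 ratio over D0 -2.41. Without the 5 highest cells of each label, chosen after seeing the data, the log2 ratios over D0 were -3.51 in D1 and -1.37 in D2. Among cells with a read of Dppa3, the median levels were 86.7, 20.1 and 48.8 CPM in D0, D1 and D2.

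**Figure D1:**
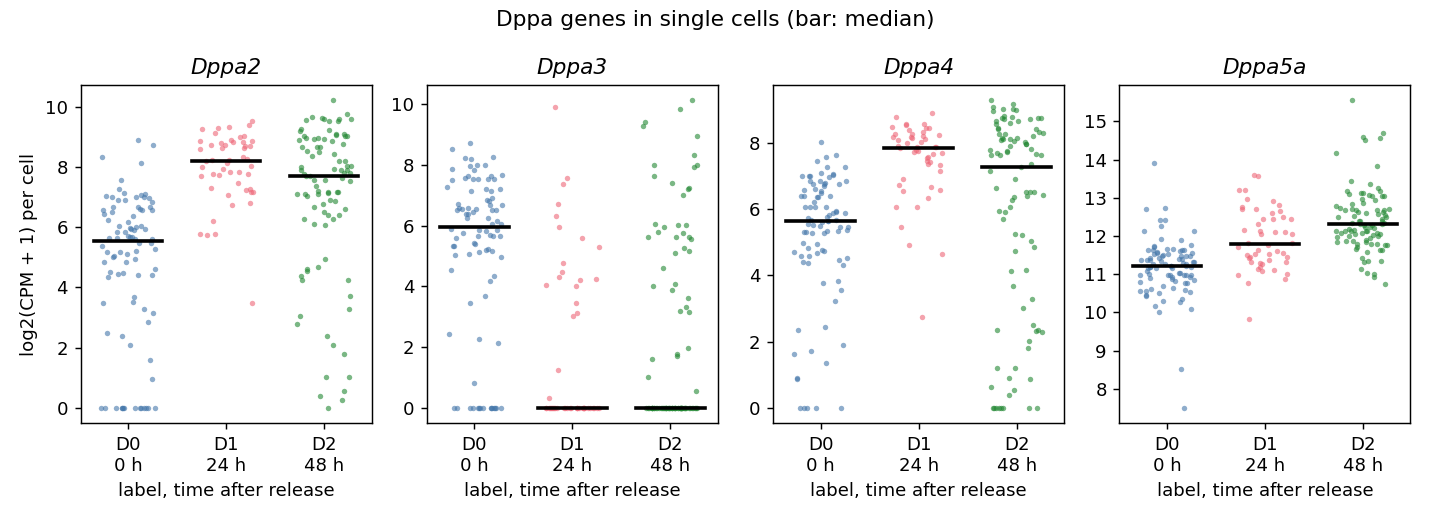
Level of each Dppa gene in each passing cell as log2(CPM + 1) on the vertical axis, which has its own scale for each gene, by label and time after release; each point is 1 cell (90 in D0, 50 in D1, 93 in D2) and the bar is the median over cells. The medians of Dppa2, Dppa4 and Dppa5a are higher in D1 and D2 than in D0, while that of Dppa3 is at 0 in D1 and D2 with a few cells as high as 948 and 1115 CPM.

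The share of cells with a read of Dppa3 was also lower after release, at full and at equal depth. A read of Dppa3 was found in 75 of 90 cells labelled D0 (83.3%, exact 95% Clopper-Pearson interval 74% to 90.4%), 20 of 50 labelled D1 (40%, 26.4% to 54.8%) and 41 of 93 labelled D2 (44.1%, 33.8% to 54.8%). With each cell thinned to 200000 reads the shares were 82.2%, 38% and 39.8%. The intervals of D1 and D2 lie below that of D0, and they cover counting error among the cells of 1 culture only. At equal depth, cells of D2 had a median of 3952 detected genes against 7823.5 in D0. How many other genes had a lower share of cells in D2 was not counted. Dppa2 had a read in 84.4% of cells in D0 (75.3% to 91.2%), in all 50 cells of D1 (from 92.9%) and in 92 of 93 cells of D2 (98.9%, 94.2% to 99.97%), and in 81.1%, 100% and 91.4% after thinning. Dppa4 had a read in 94.4% of cells in D0 (87.5% to 98.2%), in all 50 cells of D1 and in 91.4% of those of D2 (83.8% to 96.2%), and in 90%, 100% and 78.5% after thinning. The share of Dppa4 in D2 was below that in D0 although its mean CPM was above it, so these shares are not put in order. All 4 genes were read together in 58 of 90 thinned cells in D0 (64.4%), 19 of 50 in D1 (38%) and 29 of 93 in D2 (31.2%). In D1 Dppa3 alone set this number, since the other 3 genes were read in every thinned cell.

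**Figure D2:**
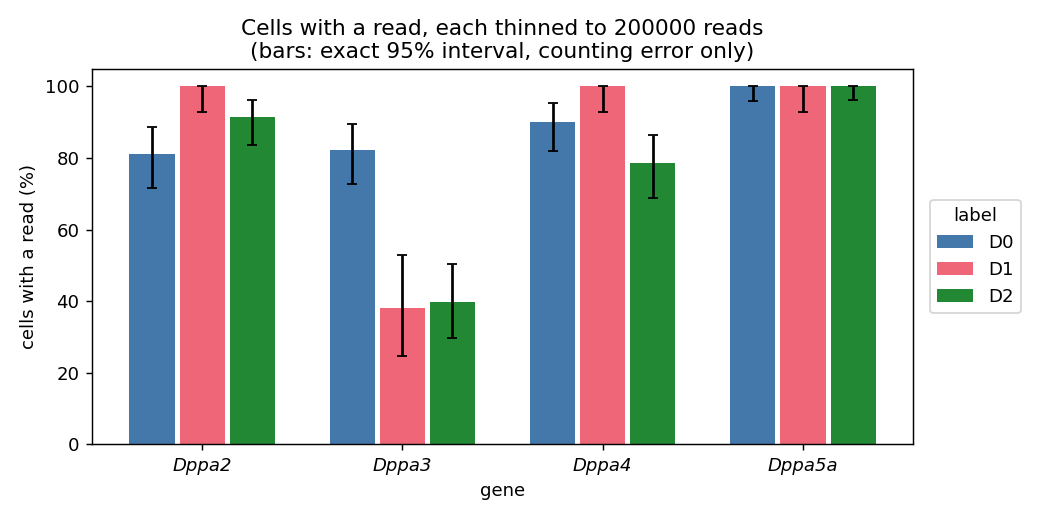
Percent of cells with at least 1 read of each Dppa gene after each cell was thinned to 200000 reads, by label (90 cells in D0, 50 in D1, 93 in D2), with exact 95% intervals that cover counting error only. The share for Dppa3 is 82.2% in D0 against 38% in D1 and 39.8% in D2, and that for Dppa4 is 90% in D0 and 78.5% in D2.

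Set against all genes, 2 of the 4 Dppa genes were at least 2-fold higher in D1 than in D0, Dppa2 and Dppa4, where 17.4% of 10494 genes were. The genes counted are those read in 50% or more of the cells of 1 of the labels compared. Dppa3 was the 1 gene at least 2-fold lower, where 26.7% of all genes were, and it was at -0.86 and not called in plate columns 7 to 12. Of all genes tested in this comparison, 94.9% had a lower ratio than Dppa2 and 92.6% a lower ratio than Dppa4. In D2 over D0, 3 of 4 were at least 2-fold higher, Dppa2, Dppa4 and Dppa5a, where 10.9% of 8822 genes were, and 0 of 4 were at least 2-fold lower, where 29.3% were. These counts depend on the average: by the difference of mean log2(CPM + 1), which gives cells without a read more weight, 2 of 4 were higher, with Dppa4 at 0.70, and 1 was lower, Dppa3 at -2.71. Dppa3 was at -1.37 without the 5 highest cells of each label. In D2 over D1 none of the 3 Dppa genes that met the limit on cells passed 2-fold in either direction, where 16.4% of 9855 genes were higher and 23.8% lower. Their log2 ratios were -0.18 for Dppa2, -0.26 for Dppa4 and 0.61 for Dppa5a. By the difference of mean log2(CPM + 1), 2 were at least 2-fold lower in D2, Dppa2 at -1.04 and Dppa4 at -1.64. Dppa3, read in under 50% of the cells of both labels, was at 0.96, and at 2.02 without that highest cell of D1. The comparisons over D0 share the D0 cells. The median log2 ratio of all genes over D0 was -0.22 for D1 and -0.25 for D2. With reads summed over the cells of a label, so that deep cells weigh more, these medians were -0.13 and -0.24 and the split of all genes was 17.9% higher and 24.7% lower in D1, and 14.3% and 31% in D2. With TMM factors applied to the summed reads the medians were 0.08 and 0.03 and the splits 22.3% and 20.3% in D1, and 21.5% and 25.6% in D2. The log2 ratios in D1 and D2 over D0 from summed reads were 2.50 and 2.16 for Dppa2, 1.82 and 1.55 for Dppa4, 0.54 and 1.39 for Dppa5a, and -2.91 and -0.83 for Dppa3. With TMM factors on these sums they were 2.71 and 2.44 for Dppa2, 2.03 and 1.83 for Dppa4, 0.75 and 1.67 for Dppa5a, and -2.70 and -0.55 for Dppa3, so the move of Dppa3 in D1 from -1.35 came with the summing and not with the factors.

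Without the D0 and D2 cells that had an Hprt read and the D1 cells that had none, a choice made after seeing the data, the log2 ratios in D1 over D0 were 2.59 for Dppa2, 1.90 for Dppa4, 0.70 for Dppa5a and -1.17 for Dppa3. In D2 over D0 they were 2.35, 1.59, 1.30 and -0.25, and in D2 over D1 -0.24, -0.31, 0.60 and 0.92, in the same order of genes. Of the 53 other genes of the lists described here that met the limit on cells in D1 over D0, 2 changed their side of 2-fold, Mbd4 from -1.05 to -0.98 and the germline gene Tuba3a, which was at -0.57 in all cells and came just past 2-fold lower, and Khdc3 moved most, from -3.22 to -4.32. Of 43 genes in D2 over D0 and 49 in D2 over D1, 0 changed side.

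**Figure D3:**
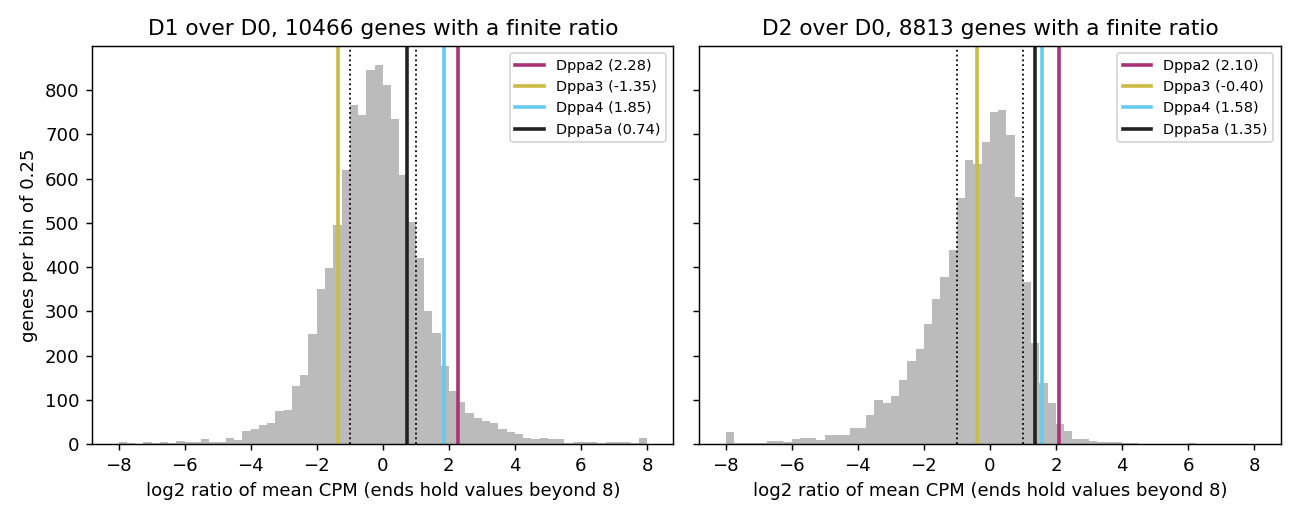
Log2 ratio of mean CPM over D0, for D1 on the left and D2 on the right, of all genes read in 50% or more of the cells of 1 of the labels compared (grey, genes per bin of 0.25, the end bins hold values beyond 8), with the 4 Dppa genes as coloured lines and 2-fold as dotted lines. Dppa2 lies at 2.28 and 2.10, Dppa4 at 1.85 and 1.58, Dppa5a at 0.74 and 1.35 and Dppa3 at -1.35 and -0.40.

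The cell-to-cell relation of the Dppa genes to the de novo methyltransferase genes was described by the Spearman rho of their CPM over the cells of 1 label. Such cells share a culture, a plate and a library preparation, and cells with more detected genes can rank high for many genes at once. Of the 12 pairs of a Dppa gene and a Dnmt3 gene, 1 in D0, 5 in D1 and 3 in D2 had an absolute rho of at least 0.3. The counts moved with the cells and the measure used: that of D0 was 2 with Pearson r, with partial rho, in plate columns 1 to 6 and in cells chosen by Hprt read, and in plate columns 7 to 12 it was 4 for D0 and 5 for D2. Over all pairs of a Dppa gene with a gene read in 50% or more of cells, 3.03% passed this limit in D0, 15.1% in D1 and 1.55% in D2. In D1 the share was 26.9% for Dppa2 and 23.9% for Dppa5a, which hold 4 of the 5 pairs counted there, so a rho of this size with either gene is common in that label. In D1, cells with more Dppa2 had more Dnmt3a (rho 0.55, n = 50) and more Dnmt3b (0.48), while the rho of Dppa2 with all genes ran from a 5th percentile of -0.30 to a 95th of 0.46. In D2 the rho of Dppa2 was 0.31 with Dnmt3b, 0.27 with Dnmt3l and 0.11 with Dnmt3a (n = 93), where the 95th percentile over all genes was 0.20. In D0, where Dnmt3a had a read in 27.8% of cells and Dnmt3l in 38.9%, the rho of Dppa2 was 0.24 with Dnmt3a, 0.05 with Dnmt3b and 0.01 with Dnmt3l (n = 90). Given the number of detected genes and the reads of each cell, the partial rho in D1 was 0.48 for Dppa2 with Dnmt3a and 0.39 with Dnmt3b.

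Dppa5a had the opposite sign with the same genes in D1 and D2. In D0 its rho was -0.28 with Dnmt3a, 0.02 with Dnmt3b and -0.06 with Dnmt3l. In D1 its rho was -0.51 with Dnmt3b and -0.39 with Dnmt3a, and in D2 -0.45 with Dnmt3b and -0.35 with Dnmt3l. The 5th percentile of its rho with all genes was -0.43 in D1 and -0.26 in D2, so the value with Dnmt3a in D1 lies inside that range. Given detected genes and reads, the partial rho of Dppa5a with Dnmt3b was -0.44 in D1 and -0.41 in D2. Dppa4 had a rho of 0.31 with Dnmt3a in D1 and of 0.30 with Dnmt3b in D0, just under the limit of 0.3 before rounding. Dppa3 in D0 had a rho of -0.33 with Dnmt3l, which was -0.25 in thinned cells, and its other 8 values lay between -0.09 and 0.20. Most of these are weak relations in sparse counts, and none is read as a finding by itself.

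**Figure D4:**
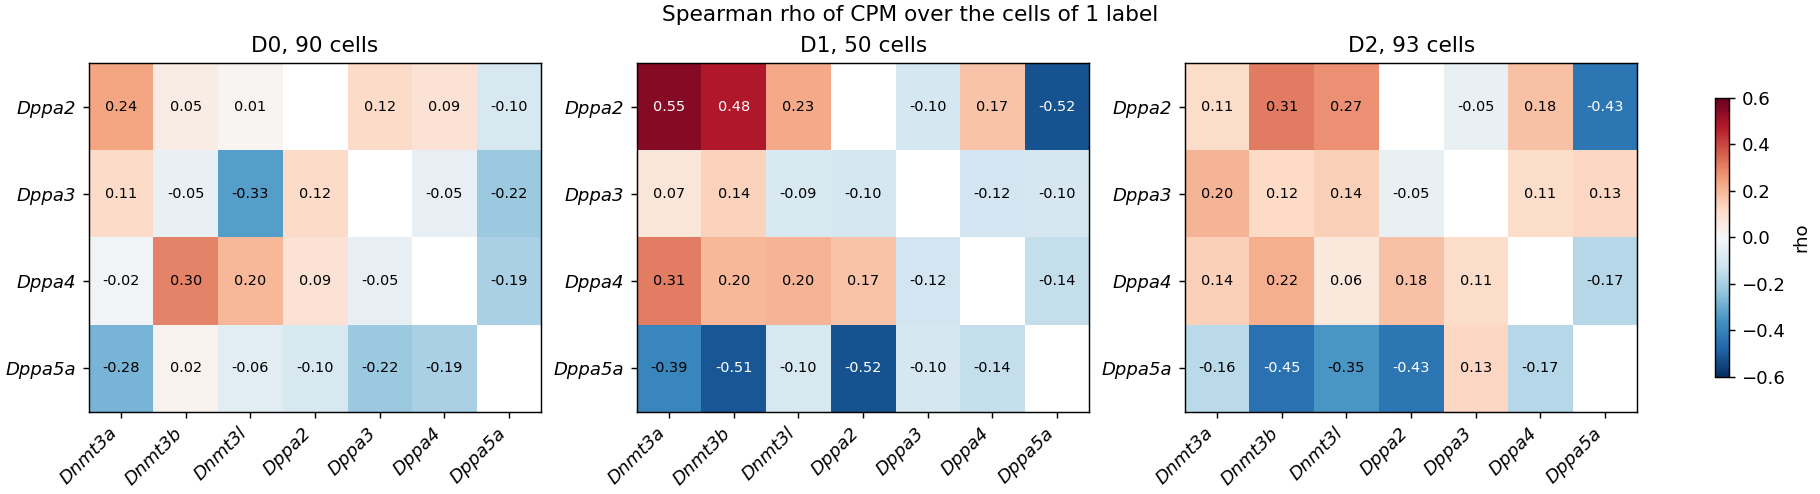
Spearman rho of CPM over the cells of each label (90, 50 and 93 cells) between each Dppa gene (rows) and the Dnmt3 and Dppa genes (columns); red is positive, blue negative and blank the gene with itself. The values farthest from 0 are in D1, at 0.55 for Dppa2 with Dnmt3a and -0.52 for Dppa2 with Dppa5a.

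Among the Dppa genes themselves, Dppa2 and Dppa5a ran against each other after release. Their rho was -0.52 in D1 and -0.43 in D2 beside -0.10 in D0, and given detected genes and reads it was -0.40 in D1 and -0.45 in D2. The mitochondrial share, which this partial rho leaves out, had a rho in D1 of 0.40 with Dppa2 and -0.44 with Dppa5a. In D2 these values were -0.04 and -0.11. An absolute rho of at least 0.3 is common in D1, where 26.9% of genes passed it with Dppa2 and 23.9% with Dppa5a. In D2 no gene among the 3798 read in at least 50% of cells had a lower rho with Dppa2 than Dppa5a. Dppa2 and Dppa4, whose proteins act as a pair and whose genes are neighbours, had a rho of 0.09 in D0, 0.17 in D1 and 0.18 in D2. On the mean they moved alike between labels, with log2 ratios of 2.28 and 1.85 in D1, while cell by cell they were only weakly related. The rho of Dppa3 with the other 3 lay between -0.22 and 0.13 in all labels.

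**Figure D5:**
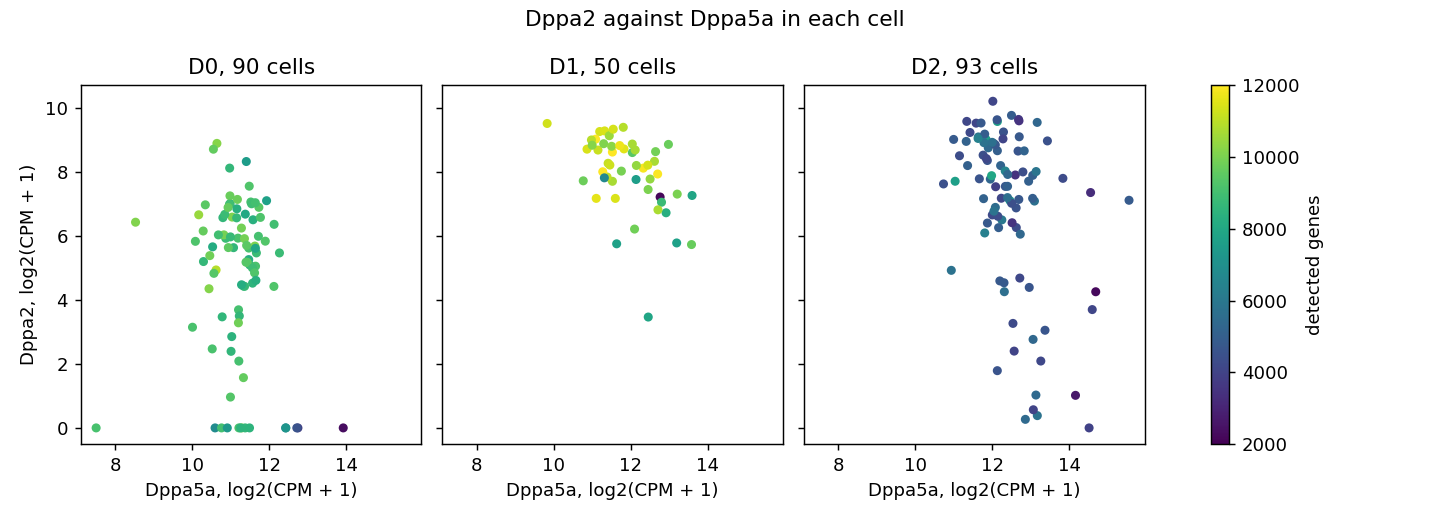
Dppa2 against Dppa5a in each cell as log2(CPM + 1) by label, coloured by the number of detected genes. Each point is 1 cell, and rho is -0.10 in D0 (90 cells), -0.52 in D1 (50) and -0.43 in D2 (93), where the cells with the highest Dppa5a have low or middle Dppa2.

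The genes whose levels were most like those of each Dppa gene were named by rank over cells thinned to equal depth. For Dppa5a they were the ferritin copy Ftl2 (rho 0.70) and the ribosomal protein genes Rps18 (0.69) and Rpl41 (0.68) in D0, Rps26 (0.69) and Rps14 (0.68) in D1, and Tmsb10 (0.61), Ubb (0.52) and Gpx4 (0.52) in D2. For Dppa2 they were Nup62cl (0.47), Rbpj (0.44) and Cct3 (0.42) in D0, Armc1 (0.77), Mbtd1 (0.76) and Ptges3 (0.75) in D1, and Mrpl34 (0.34), Dnmt3b (0.33) and Basp1 (0.33) in D2. For Dppa4 they were the replication helicase gene Mcm2 (0.43), Tubgcp2 (0.37) and Atad1 (0.37) in D0, Phf23 (0.62), Arhgap19 (0.57) and Ppp4r1 (0.55) in D1, and Gid8 (0.44), Sgk1 (0.41) and Bex4 (0.37) in D2. For Dppa3 in D0 they were Atp10d (0.40), Polr3c (0.37) and Tes (0.36), and in D1 and D2 it was read in too few cells. No other gene of the Dppa or Dnmt3 families but Dnmt3b was in these lists.

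Genes that lie near the Dppa genes were compared with them. Of 6 neighbours of Dppa3, 3 met the limit on cells. Nanog, a naive pluripotency factor 77216 bases away, averaged 489 ± 228, 67.2 ± 139 and 268 ± 391 CPM in D0, D1 and D2, with log2 ratios against D0 of -2.86 and -0.87. Slc2a3, a glucose transporter gene 97536 bases away, had log2 ratios of -2.51 and -1.28. Gdf3, a TGF-beta family ligand gene and the nearest of these at 16322 bases, had log2 ratios of 0.65 and 0.47. Nanog and Slc2a3 were thus at least 2-fold lower in D1 over D0, as Dppa3 was, and Gdf3 was not, where 26.7% of all genes were lower. Whether position near Dppa3 plays a part was not tested. Of the neighbours of Dppa2 and Dppa4, Morc1, a germline gene 111513 bases from Dppa2, met the limit and had log2 ratios of -0.08 and 0.47. Of 8 oocyte genes with KH domains or in the same maternal complex, 3 met the limit in D1 over D0. Ooep, 7931 bases from Dppa5a, had a log2 ratio of 1.20 in D1 and 0.35 in D2, and Khdc3 had -3.22 in D1, where its mean of 11.2 CPM was 5.30 CPM without its highest cell.

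Genes of DNA methylation, of the 2-cell embryo and of pluripotency were counted from lists, to be read against the shares of all genes given above, 17.4% higher and 26.7% lower in D1 over D0, and 10.9% and 29.3% in D2 over D0. In D1 over D0, 0 of 7 maintenance and TET genes that met the limit were at least 2-fold higher and 5 were lower, Dnmt1, Uhrf1, Uhrf2, Tet2 and Mbd4, with a median log2 ratio of -1.25 beside -0.22 for all genes. Uhrf1, whose protein DPPA3 binds, averaged 913 ± 392, 333 ± 212 and 273 ± 517 CPM in D0, D1 and D2. In D2 over D0, Tdg was higher and Uhrf1 lower of 6 such genes. All 3 Dnmt3 genes were at least 2-fold higher in both comparisons, with log2 ratios of 5.47 and 3.93 for Dnmt3a, 1.68 and 2.02 for Dnmt3b and 4.88 and 4.40 for Dnmt3l. Of 12 symbols listed for genes of the 2-cell embryo, 11 are in the table and none met the limit in any comparison. The 6 markers of 2-cell-like cells together were read in 1 of 233 cells. Among the 12, reads fell on Duxf3 in 2 cells of D1 (102 reads), Usp17lb in 1 cell of D1 (42 reads), Tcstv1 in 1 cell of D1 (2 reads) and Usp17la in 2 cells of D0 (45 reads), and none fell in D2. Several of these genes have near-identical copies, so a count of 0 is not read as absence. Of 11 naive factors, 1 was at least 2-fold higher in D1 over D0, Nr0b1, and 8 were lower, while in D2 over D0 1 was higher and 6 lower. Of 5 core factors, 2 were higher and none lower in D1, and 2 higher and 1 lower in D2. Of the formative genes, 3 of 6 were higher in D1 and 1 of 3 in D2, and none was lower.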

How the data were processed

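Single-cell RNA-seq of 288 wells (96 each for D0, D1 and D2) was used; other data types were not used here. The table the authors deposited holds counts, 1 row a gene and 1 column a well, not normalized. The labels speak of normalized and filtered values, but all are whole numbers and failing wells are included. The submitters' processing notes name HISAT2 and GRCm38; the annotation and counting tool are not given in the sources used here. Groups came from the labels. The members and all lists were chosen with earlier results of these data known.

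Cells were kept above 200000 reads and 2000 genes with a mitochondrial fraction under 0.15. Counts were scaled to CPM with each cell's total, and means give cells equal weight. With 1 culture per label no test was run. Ratios of mean CPM were read against 2-fold, over genes read in 50% or more of the cells of 1 of the 2 labels. Shares have exact 95% intervals, at full depth and in cells thinned to 200000 reads (random seed 1). Named genes are the 4 members, list genes past 2-fold or needed for a count, and the 3 genes with the highest rho per member and label, without clone-like symbols; 1 gene the rule names is not reported here. Coordinates and exon lengths came from GENCODE M21. Tools were Python 3.11.15, numpy 2.4.6, pandas 2.3.3, scipy 1.17.1, Biopython 1.88, matplotlib 3.10.9, R 4.3.3 and edgeR 4.0.16 (TMM factors only). Ratios were tested on simulated counts for D1 over D0 with 18356 genes, against 10494 in the data. Of 200 genes changed 4-fold, 200 passed 2-fold in the right direction, and 0.650% of unchanged genes passed 2-fold. Both groups were drawn from the D0 means, with the same spread for every gene and no difference of culture, plate or line. The 0.650% therefore does not describe these data.

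The alternatives were no cell filter, summed reads, TMM and median-of-ratios factors on the sums, totals without abundant genes, pseudocounts of 1 and 10 CPM, mean log2 and median values, thinning, detection limits of 5 reads and 10 CPM, partial and Pearson correlations and each side of the plate. Added after seeing the data were cells by Hprt read, plates without column 12, each cell left out in turn, the 5 highest cells of each label left out, the Y-linked sum and means of list genes without their highest cell.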

Additional observations from a re-analysis of the deposited data

Results flagged for a closer look

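The wells that failed the cell filter enter no comparison, and all 4 Dppa genes had reads in some of them. Of these 55 wells, 46 were labelled D1. A read of Dppa5a was found in 42 of the 55, of Dppa2 in 13, of Dppa4 in 9 and of Dppa3 in 5. In the failing wells labelled D1, 70 reads fell on Dppa2, 44 on Dppa4, 22 on Dppa3 and 3325 on Dppa5a. Of the 3 failing wells labelled D2, 1 held 2906 reads of Dppa3. There are no empty control wells to set these against, and their source was not tested.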

How the results depend on the processing

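No paired analysis was possible because each label is 1 culture and its wells carry no replicate numbers. Of 201 log2 ratios of the Dppa genes under alternatives, 152 moved beyond their counting interval, 3 reversed and 46 were counted as unmoved. Differences of mean log2(CPM + 1) were not set against an interval. They were counted as unmoved unless their sign changed, also where they lay far from the reported ratio. The reversed ones were those with no filter on cells, which gave 0.12 for Dppa3 in D2 over D0, and 0.25 for Dppa2 and 0.31 for Dppa4 in D2 over D1; the failing wells are the difference. The ratios of Dppa2, Dppa4 and Dppa5a over D0 stayed above 0 in every setting, and those of Dppa3 in D1 over D0 ran from -3.51 to -0.86.

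The number of Dppa genes at least 2-fold lower in D1 over D0, 1 as reported, was 0 in plate columns 7 to 12, where Dppa3 was at -0.86. With the difference of mean log2(CPM + 1) the number lower was 1 in D2 over D0 and 2 in D2 over D1, where 0 is reported, the number higher in D2 over D0 was 2 in place of 3, with Dppa4 at 0.70, and Dppa3 in D2 over D0 was at -2.71. Counted over all 4 genes, with Dppa3 although it misses the limit on cells in D2 over D1, the number higher there was 0 in the reported means and 1 in plate columns 1 to 6, in sums of reads (plain, or with TMM or median-of-ratios factors) and without the cell filter. The 1 was Dppa3, at 0.96 as reported and at 1.90 to 2.50 in these settings. The number of Dppa and Dnmt3 pairs with an absolute rho of at least 0.3 in D0, 1 as reported, was 2 with Pearson r, partial rho, plate columns 1 to 6 and cells by Hprt read, and 4 in plate columns 7 to 12. In D2 it was 5 in plate columns 7 to 12 in place of 3. Causes of these changes were not tested. Of 378 values of rho, 62 moved, and of 72 shares of cells, 10 moved. The ratio of medians gave no value for Dppa3, whose median is 0 after release, and a mitochondrial limit of 0.15 percent, which left 1 cell, was not run. Depth limits the shares of Dppa2 and Dppa4 in D2 most, and no alternative adds a culture.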

Other observations

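Germline genes, many of them known to be held silent by DNA methylation, were counted as a further list. Of 15, 9 met the limit on cells in D1 over D0, where 5 were at least 2-fold higher, Ddx4, Mael, Sycp1, Syce1 and Hormad1, and 2 lower, Dazl and Rpl10l, where 17.4% and 26.7% of all genes were. Ddx4, an RNA helicase gene of germ cells, had means of 2.14 ± 8.99, 44.7 ± 160.2 and 8.76 ± 54 CPM in D0, D1 and D2. Without its highest cell the mean was 23.1 CPM in D1 and 3.45 CPM in D2. Hormad1, a meiotic chromosome axis gene, was at 52 ± 97.6, 207 ± 397 and 47.4 ± 70.5 CPM in the same order. In D2 over D0, 2 of 5 were higher and 1 lower, where 10.9% and 29.3% of all genes were. Of 6 germ cell factors, 4 met the limit. In D1 over D0, Ifitm3 was higher, with a log2 ratio of 1.23, and Tfap2c (-2.10), Kit (-4.61) and Ifitm1 (-1.45) were lower, and in D2 over D0 Tfap2c and Kit were lower. On the mean, Dppa3 was lower in D1 over D0, as were Tfap2c, Kit and Ifitm1 but not Ifitm3, where 26.7% of all genes were. In D2 over D0 Dppa3 was at -0.40 and did not pass 2-fold. No relation between these genes and Dppa3 was computed.

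Hprt reads in D0 and D2 lay at 1 edge of the plate. In D0, 6 of 8 cells in plate column 12 had a read, 2 of 8 in column 11 and 1 of 74 in columns 1 to 10, and in D2 the numbers were 6 of 8, 1 of 7 and 0 of 78. The mean Hprt level in column 12 was 32 CPM in D0 and 30.6 CPM in D2, against 220 CPM in columns 1 to 10 of D1. In column 12 of D0, Dppa3 was at 208 ± 125 CPM and Dppa2 at 129.9 ± 145 CPM (n = 8), against 85.3 ± 83.7 and 61.9 ± 75.1 CPM in columns 1 to 10 (n = 74). Without column 12 the log2 ratios in D1 over D0 were 2.44 for Dppa2, 1.88 for Dppa4, 0.65 for Dppa5a and -1.13 for Dppa3. The source of these reads was not tested.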
